A study of Mus musculus with 8 samples.

Results

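The mature microRNAs (miRNAs) of the mouse hairpins miR-204 and miR-211 were measured in skin, as mmu-miR-204-5p, mmu-miR-211-5p and mmu-miR-211-3p. These 3 were chosen by name from the 1881 mouse miRNAs on the array. A miRNA is a short RNA that guides a silencing complex to messenger RNAs, mainly by pairing through its seed, bases 2 to 8 from the 5′ end. The hairpin of miR-211 lies within Trpm1, a gene that the pigment cell regulator MITF switches on in melanocytes, and the hairpin of miR-204 lies within the related channel gene Trpm3. Both miRNAs are known from pigmented cells, among them the retinal pigment epithelium, and miR-204 is also made in tissues without pigment.

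The array signal of miR-204-5p was lower in NcstnΔKC skin, where it was detected on 1 of 4 arrays, than in normal skin, where it was detected on 4 of 4. Its groups did not overlap, which was also so for many others, 82 of the 222 tested miRNAs (36.9%) in all. The size of the difference of miR-204-5p depends on the floor given to undetected values. miR-211-5p, which has the same seed, was near background in both groups and was detected on only 1 array of the 8. miR-211-3p, the other arm of the miR-211 hairpin, was detected on all 8 arrays, varied widely within normal skin, and showed no difference that passed the test. Its only probes are short, of 12 and 13 bases with a run of 6 C, and which RNA they read was not tested.

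Skin lesions, as the labels call the excised tissue, came from male mice of genotype Ncstn flx/flx; Krt14 CreER+/- in both groups. Nicastrin, the product of Ncstn, is part of γ-secretase, which cuts Notch receptors, and the Krt14 promoter confines the tamoxifen-dependent Cre recombinase to keratinocytes, mainly of the basal layer. The NcstnΔKC group (4 samples) was dosed orally with tamoxifen at 20 mg/kg, starting when mice were 8 weeks old, for 5 successive days and thereafter once per 10 days. The normal group (4 samples) carried the same alleles and was given corn oil alone, so the effects of the drug and of Ncstn loss cannot be told apart here. Skin was taken at 16 weeks. Whether each sample is from its own mouse is not in the labels, so the spread behind every p-value is that between samples and may be technical. The arrays measured neither Ncstn nor Trpm1 nor Trpm3 mRNA. In a bulk skin sample, fewer cells of a type and less RNA per cell cannot be told apart.

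The mature sequences show what the members share, with the seed in capitals (RefSeq, build GRCm38.p6).
miR-204-5p: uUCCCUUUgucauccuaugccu
miR-211-5p: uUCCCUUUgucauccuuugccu
miR-211-3p: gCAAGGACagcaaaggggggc
miR-204-3p: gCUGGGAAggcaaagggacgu
miR-204-5p and miR-211-5p have 1 seed and differ at 1 of their 22 bases, A17U, counted from the 5′ end with the base of miR-204-5p first. The seeds of the 3p arms differ from this one and from each other. mmu-miR-7670-3p is the only other listed mouse miRNA with the seed of the 5p arms, and no other listed miRNA has the seed of miR-211-3p. miR-204-5p is encoded at chr19:22750610-22750631, miR-211-5p at chr7:64205831-64205852 and miR-211-3p at chr7:64205868-64205888, all on the plus strand of GRCm38.p6. The Mir204 hairpin lies inside the span of Trpm3 (chr19:22137797-22995410) and the Mir211 hairpin inside the span of Trpm1 (chr7:64153835-64269772).

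The array reads each miRNA with several DNA probes that pair with its 3′ end. The longest probe of each 5p arm is shown with, in capitals, the only base at which the probes of the arms differ apart from their length, and the shortest probe of miR-211-3p with its run of 6 C in capitals.
miR-204-5p: aggcaTaggatgacaaaggg
miR-211-5p: aggcaAaggatgacaaagggaa
miR-211-3p: gCCCCCCtttgc
The 5p arms are thus told apart by a single base of the probe, and how far each RNA binds the probes of the other was not tested. miR-204-5p has probes of 19 and 20 bases, miR-211-5p of 19, 20, 21 and 22 bases, and miR-211-3p of 12 and 13 bases. In the array files, which give positions on mm9, the 20-base probe of miR-204-5p is listed at chr19:22825103-22825121, the 22-base probe of miR-211-5p at chr7:71350718-71350738 and the 12-base probe of miR-211-3p at chr7:71350764-71350774. Each listed span is 1 base shorter than its probe.

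Between 198 and 238 miRNAs were detected per NcstnΔKC array (217 ± 17.2, SD, n = 4), against 235 to 273 per normal array (252 ± 17.2, SD, n = 4), a difference of -34.5 with an exact two-sided permutation p of 0.0571. The intensity used for scaling, the 75th percentile over 301 probes detected on all 8 arrays, was lower, at 1053 ± 98.3 in NcstnΔKC skin and 1259 ± 44.6 in normal skin (SD, n = 4; exact permutation p = 0.0286, the smallest that 4 against 4 allows). Negative control spots averaged 22.4 ± 2.08 in NcstnΔKC skin and 22.1 ± 1.88 in normal skin (SD, n = 4; exact permutation p = 0.857). All arrays sat on 1 slide, with every NcstnΔKC sample in row 1 and every normal sample in row 2, and the row cannot be told apart from the group. Of 222 miRNAs tested, 62 were called lower in NcstnΔKC skin (27.9%) and 33 higher (14.9%), at an adjusted p under 0.05 (limma, Benjamini-Hochberg over all 222). This split moved with the scaling, to 12 higher and 0 lower with the percentile over all probes, 24 and 101 with none, 18 and 91 with spike-in RNAs, 36 and 36 in the deposited value table, 38 and 32 with quantile normalization, 41 and 30 with cyclic loess, and 36 and 28 with normexp background correction. Over all tested miRNAs the log2 difference had a median of -0.23.

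For miR-204-5p, the log2 scaled signal was -4.19, -4.97, -4.97 and -4.97 in NcstnΔKC 1 to 4, against -3.39, -2.97, -3.31 and -2.70 in normal 1 to 4. The value -4.97 is the floor, set at the median over arrays of the lowest signal of a detected miRNA. Every normal array lay above every NcstnΔKC array, and 3 of the 4 NcstnΔKC arrays sat at the floor. miR-204-5p was detected on 1 of 4 NcstnΔKC arrays and on 4 of 4 normal arrays. Groups did not overlap for 82 of the 222 tested miRNAs (36.9%), so the gap between groups of miR-204-5p is shared by many miRNAs.

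The mean log2 signal of miR-204-5p was -4.78 ± 0.39 in NcstnΔKC skin and -3.09 ± 0.32 in normal skin (SD, n = 4). The difference was -1.69 ± 0.24 (SE; 95% interval -2.23 to -1.14; limma, adjusted p = 0.00182). Relative to the median of all tested miRNAs it was -1.45. miR-204-5p entered the test only through normal skin, and of the 21 tested miRNAs detected on 1 or 0 NcstnΔKC arrays, 20 were called lower, so for a miRNA that entered this way the call adds little to the detection counts. By difference, miR-204-5p ranked 9 from the lowest of the 222, and by p it ranked 10. Where values sit at the floor, the difference is understated, and so is the spread of those arrays. On the linear scale with no floor, chosen after the data were seen, the scaled signal of miR-204-5p was 0.0547, 0.0180, 0.0283 and 0.0310 in NcstnΔKC skin, against 0.0954, 0.128, 0.101 and 0.154 in normal skin. These values do not overlap either, with means of 0.0330 ± 0.0155 in NcstnΔKC skin and 0.119 ± 0.0270 in normal skin (SD, n = 4; exact permutation p = 0.0286). Any gap between groups of 4 gives this p, so it only restates the gap.

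**Figure D1:**
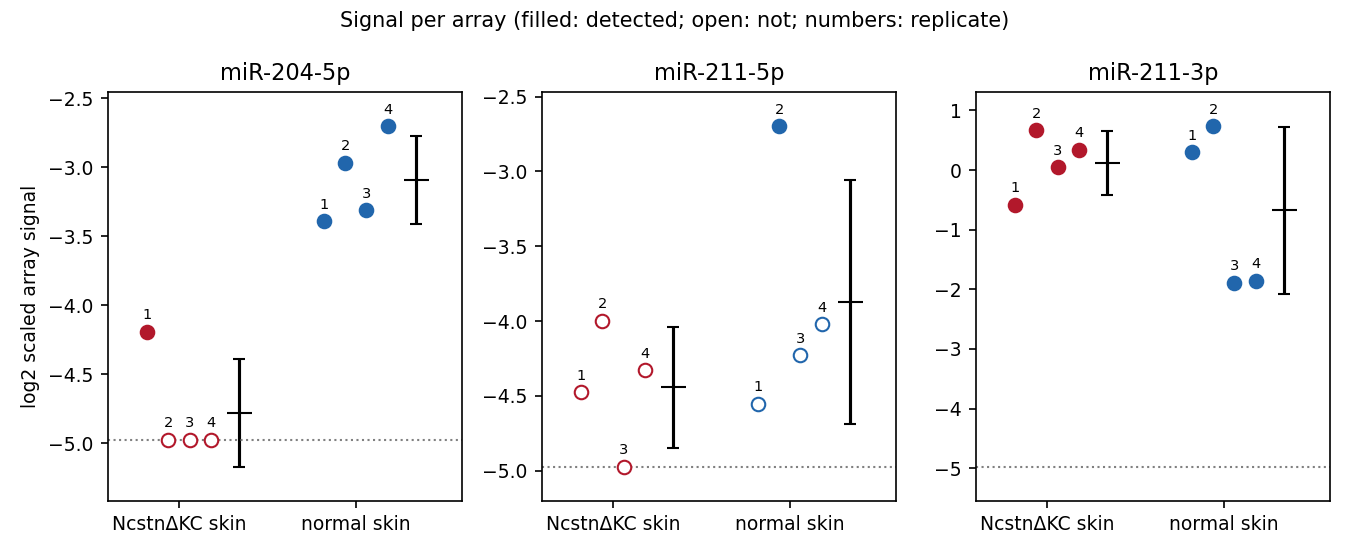
Log2 scaled array signal (y axis) of the 3 miRNAs on each array, NcstnΔKC on the left and normal on the right of each panel. Filled points were detected and open points were not, numbers give the replicate, bars are mean ± SD (n = 4) and the dotted line is the floor at -4.97; for miR-204-5p the groups are apart, for miR-211-5p only normal 2 is detected, and for miR-211-3p normal 3 and normal 4 lie at -1.89 and -1.85.

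Probe intensities show how faint miR-204-5p was. The 20-base probe read 49.7, 14.3, 21.6 and 24.0 in NcstnΔKC 1 to 4, against 103, 126, 100.3 and 166 in normal 1 to 4. The 95th percentile of the negative control spots was 36.9 to 42.9 on NcstnΔKC arrays and 35.0 to 40.3 on normal arrays. Thus all 4 normal arrays, but only NcstnΔKC 1 of the other group, lay above it. The 19-base probe was detected on no array, at 2.29 to 13.7 in NcstnΔKC skin and 18.9 to 36.5 in normal skin, and its values also did not overlap. Over the 8 arrays the intensities of these probes, which overlap in sequence, had a Pearson r of 0.979. In the fit over the 395 tested probes, of which 88 were called lower (22.3%), the 20-base probe differed by -1.21 ± 0.17 (limma, adjusted p = 0.00208). With all probes of the array tested, that call was lost, at an adjusted p of 0.0714 (limma).

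**Figure D2:**
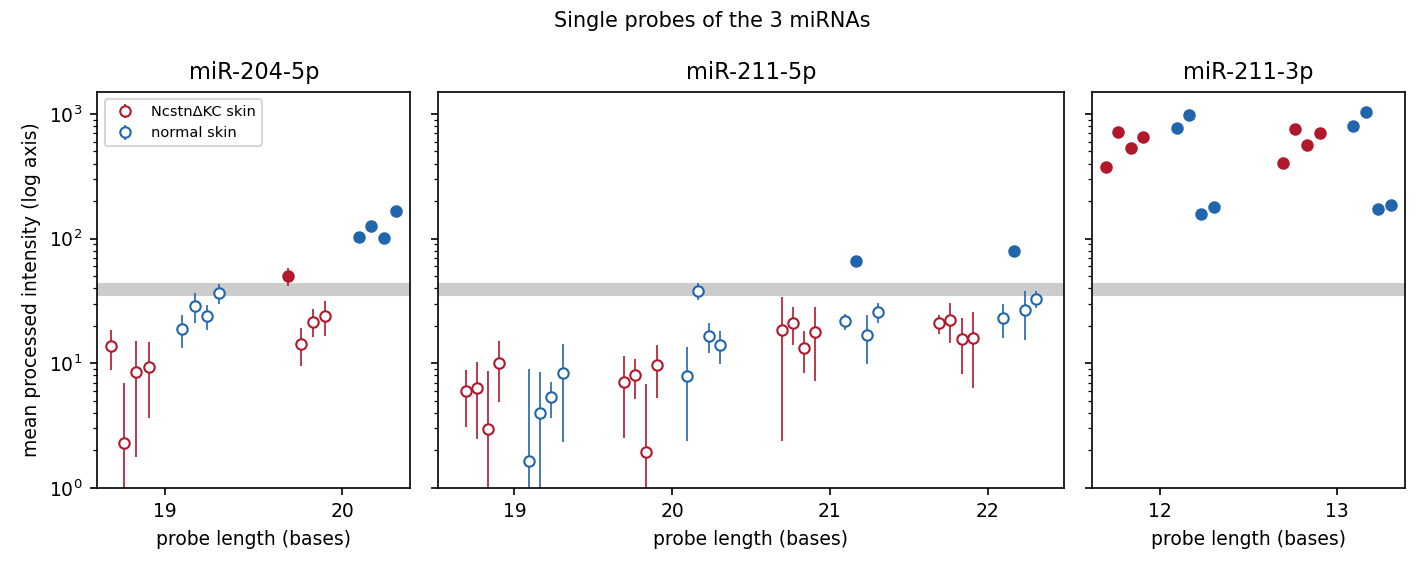
Mean processed intensity per probe (y axis, log scale) against probe length in bases (x axis), with 1 point per array, NcstnΔKC left of normal, and bars of SD over the spots of that probe. Filled points were detected and open points were not, and the grey band spans the 95th percentiles of negative control spots, 35.0 to 42.9; the 20-base probe of miR-204-5p is above the band in normal skin, and both probes of miR-211-3p are far above it on every array.

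Leaving out each array in turn, miR-204-5p kept its call, with differences of -1.88 to -1.56 and adjusted p-values of 0.000677 to 0.00986 (limma). With all miRNAs of the array tested, its adjusted p was 0.0493 (limma), and with normal 2 then left out the call was lost (-1.64, adjusted p = 0.0995). With the detection filter it passed in 6 of 6 other scalings or value tables, at -1.85 to -0.33, the smallest being with normexp background correction. That correction was run with an offset of 50 added to each spot, which makes log2 differences of faint probes smaller. With the 75th percentile taken over all 4415 probes the difference of miR-204-5p was -0.77 and the call was lost (limma, adjusted p = 0.577). The size of the difference rested on the floor and on how probes were combined, at -0.88 with a floor 2 times as high, -1.21 from the brightest probe and -0.61 from the mean of log2 over probes, all of which passed (limma, adjusted p 0.00206 to 0.00546). The percentile over all probes was an intensity of only 0.83 to 6.54, below the mean of the negative control spots.

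miR-211-5p had log2 values of -4.48, -4.00, -4.97 and -4.33 in NcstnΔKC 1 to 4, against -4.55, -2.70, -4.23 and -4.02 in normal 1 to 4. The groups overlapped, and normal 2 stood apart, the next highest array being NcstnΔKC 2. It was not well above background on any NcstnΔKC array and was detected on 1 normal array, normal 2, so it did not enter the test. Its means were -4.44 ± 0.41 in NcstnΔKC skin and -3.87 ± 0.82 in normal skin (SD, n = 4). With 7 of 8 arrays not well above background, these means are mostly bounds and no fold is given. With all miRNAs of the array in the fit, the difference of -0.57 did not pass (limma, adjusted p = 0.374), and without normal 2, a setting added after the data were seen, it was -0.18 (adjusted p = 0.564).

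The 22-base probe of miR-211-5p read 20.8, 22.4, 15.6 and 16.0 in NcstnΔKC skin, against 23.1, 79.8, 26.7 and 32.8 in normal skin. Its 21-base probe read 13.2 to 21.0 in NcstnΔKC skin and 17.0 to 65.5 in normal skin. For these probes, normal 2 alone was above the 95th percentile of its negative control spots. The probes of 20 and 19 bases were detected on no array. As the defining miRNA of pigment cells among the members, miR-211-5p thus gave a signal above background in 1 skin sample, and levels of pigment cells cannot be read from it here.

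miR-211-3p, the other strand of the duplex cut from the miR-211 hairpin, was detected on 4 of 4 arrays in each group. Its log2 values were -0.58, 0.67, 0.05 and 0.34 in NcstnΔKC 1 to 4, against 0.30, 0.74, -1.89 and -1.85 in normal 1 to 4. The NcstnΔKC values lay between the extremes of normal skin, where normal 3 and normal 4 were low. Its means were 0.12 ± 0.53 in NcstnΔKC skin and -0.68 ± 1.39 in normal skin (SD, n = 4). The difference was 0.80 ± 0.64 (SE; 95% interval -0.66 to 2.25; limma, adjusted p = 0.338). That interval includes 0, and it allows anything between a moderate fall and a larger rise. The SD of miR-211-3p within normal skin was the 6th highest of the 222 tested miRNAs, and its summed intensity spanned 1.89-fold over NcstnΔKC arrays and 6.12-fold over normal arrays.

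Both probes of miR-211-3p gave this pattern. The 12-base probe read 374, 716, 534 and 656 in NcstnΔKC skin, against 766, 985, 158 and 178 in normal skin. The 13-base probe read 401 to 753 in NcstnΔKC skin and 173 to 1042 in normal skin. Their intensities, from overlapping sequences, had a Pearson r of 0.9998 over the 8 arrays. With estimated array weights the difference of miR-211-3p was 1.55 and passed (limma, adjusted p = 0.00983), but that weight estimation stopped before it converged. The same limit holds for miR-204-5p with array weights (-1.85, limma, adjusted p = 3.42e-05).

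Within-array log2 ratios ask whether the members differed unequally. They are free of array scaling except where a value sits at the floor, as miR-204-5p does on NcstnΔKC 2, 3 and 4 and miR-211-5p on NcstnΔKC 3. Their own sizes compare different probes and are not levels. The ratio of miR-204-5p over miR-211-5p was 0.28, -0.97, 0.00 and -0.65 in NcstnΔKC 1 to 4, against 1.16, -0.27, 0.92 and 1.32 in normal 1 to 4. The value of 0.00 is the floor minus the floor. The groups overlapped through normal 2, and the difference of -1.12 did not pass (exact two-sided permutation p = 0.0857, 0.114 after adjustment over 3 ratios). With the software's total signals it turned to 0.59 (adjusted p = 0.886). The ratio of miR-204-5p over miR-211-3p differed by -2.48 (exact permutation p = 0.0857, adjusted 0.114), and that of miR-211-5p over miR-211-3p by -1.37 (exact permutation p = 0.114, adjusted 0.114). With both 5p arms at or near background on most NcstnΔKC arrays, these ratios say little about whether the members differed equally.

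The nearest relatives of the members were not detected. miR-204-3p, the other arm of the miR-204 hairpin, was detected on 0 of 8 arrays, with mean summed intensities of -37.2 ± 6.11 in NcstnΔKC skin and -32.4 ± 4.03 in normal skin (SD, n = 4), below 0 after background subtraction. miR-7670-3p, encoded on chromosome 6 with the seed of the 5p arms, was detected on 0 arrays. miR-7684-5p, encoded on chromosome 15 with the seed of miR-204-3p, was also detected on 0 arrays.

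**Figure D3:**
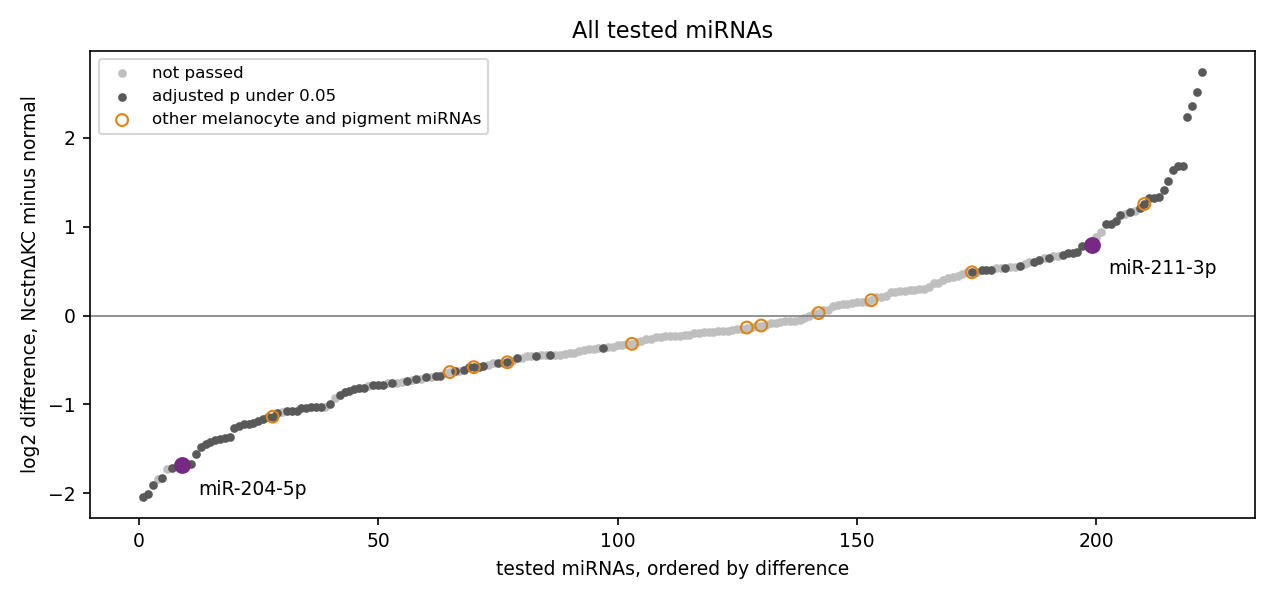
Log2 difference, NcstnΔKC minus normal (y axis), of the 222 tested miRNAs in order of that difference (x axis, rank). Dark points had an adjusted p under 0.05, purple points are miR-204-5p at -1.69 and miR-211-3p at 0.80, and orange rings are the other tested melanocyte and pigment miRNAs, which run from -1.14 to 1.26.

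A list of 22 miRNAs tied to melanocytes, melanoma or coat pigment, members included, was set beside them. Of these, 17 were detected on at least 1 array and 13 were tested. In NcstnΔKC skin 4 of the 13 were called lower, with 27.9% of all tested miRNAs lower, and 2 were called higher, with 14.9% higher. The median log2 difference of the 13 was -0.14, against -0.23 over all tested miRNAs, so these counts do not set the list apart.

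The lower miRNAs besides miR-204-5p were miR-125b-5p (-0.53 ± 0.14, adjusted p = 0.0203), miR-152-3p, of a family known to repress MITF (-0.58 ± 0.18, 0.0340), and miR-145a-5p, abundant in smooth muscle (-1.14 ± 0.39, 0.0450; limma, ± SE). The higher ones were miR-155-5p, which is abundant in activated white blood cells (1.26 ± 0.22, 0.00402), and miR-25-3p, of the miR-106b cluster (0.49 ± 0.13, 0.0176). Apart from the percentile over all probes, the call held in 6 of 6 other scalings for miR-155-5p, 5 for miR-125b-5p, 4 for miR-25-3p, 3 for miR-152-3p and 2 for miR-145a-5p. That of miR-155-5p also held with any 1 array left out. miR-145a-5p was detected on 1 NcstnΔKC array, its groups overlapped, and it was not called in 6 of 8 fits with 1 array left out (NcstnΔKC 2, 3 or 4, or normal 2, 3 or 4; adjusted p 0.0610 to 0.118). The call of miR-152-3p was lost without NcstnΔKC 1, 3 or 4 or normal 1 or 2 (adjusted p 0.0642 to 0.0899). The call of miR-125b-5p was lost without NcstnΔKC 3, NcstnΔKC 4 or normal 4 (adjusted p 0.0523 to 0.0698), and that of miR-25-3p without NcstnΔKC 3 (adjusted p 0.0661). With the percentile over all probes, miR-125b-5p and miR-152-3p turned to 0.34 and 0.29, neither called. The other 7 did not pass, among them miR-148a-3p, of the miR-152 family, at -0.64 (limma, adjusted p = 0.0502). miR-137-3p, known as a repressor of MITF, was detected on 0 arrays.

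Marker miRNAs of other skin cell types are read against the 27.9% lower and 14.9% higher of all tested miRNAs. Of 7 tested keratinocyte miRNAs 4 were lower and 0 higher (median -0.58), and their summed scaled signal overlapped, at 22.7 to 30.3 in NcstnΔKC skin and 22.5 to 27.4 in normal skin. The other 3, miR-205-5p, miR-141-3p and miR-200c-3p, did not pass, at 0.47, 0.30 and 0.12. Of 4 adipose miRNAs 3 were lower (median -0.91; sums 1.45 to 1.98 in NcstnΔKC skin and 2.14 to 3.60 in normal skin), and of 4 striated muscle miRNAs 1 was lower, near the share over all tested miRNAs (median -1.71; sums 6.41 to 38.3 in NcstnΔKC skin and 17.5 to 84.1 in normal skin). Of 5 white blood cell miRNAs 4 were tested and 2 were higher, miR-155-5p among them (median 1.20; sums 2.64 to 8.33 in NcstnΔKC skin and 1.67 to 2.31 in normal skin). The 1 tested endothelial miRNA differed by 0.15 and did not pass (sums of 2 miRNAs, 2.75 to 3.35 in NcstnΔKC skin and 2.38 to 3.08 in normal skin). Of 4 neural and Schwann cell miRNAs, 1 was detected on any array, and it differed by -0.15 and did not pass (sums 0.162 to 0.265 in NcstnΔKC skin and 0.194 to 0.244 in normal skin). The part of these values in the difference of miR-204-5p was not tested.

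The tested miRNAs most like miR-204-5p over the 8 arrays, by Pearson r of log2 values, were miR-6908-5p (0.984), miR-8101 (0.974), miR-99a-5p (0.964), miR-466h-3p (0.962) and miR-100-5p (0.960). All 5 were called lower, as a likeness over both groups favours (limma, adjusted p 0.00182 to 0.00972). miR-6908-5p differed by -1.71 ± 0.24, close to miR-204-5p, and was detected on every array. In deviations from group means, where the group difference is taken out, the closest were miR-8101 (0.874), miR-6908-5p (0.862), miR-185-5p (0.860), miR-145a-5p (0.857) and miR-669p-3p (0.831). Of these, miR-185-5p did not pass, at -0.02 (limma, adjusted p = 0.869). The arrays share slide, scaling and, for miR-204-5p, a floor at 3 points, so these values only describe likeness.

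After the values of miR-211-3p were seen, its closest match was looked up, and this was miR-8110, with a Pearson r of 0.995 over the 8 arrays and 0.996 in deviations from group means. These are the 2 of the 1881 miRNAs (0.106%) that have a probe with 6 C in a row, and they are shown with the run of 6 G that pairs with it in capitals.
miR-211-3p: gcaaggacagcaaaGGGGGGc
miR-8110: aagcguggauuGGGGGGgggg
The shortest probe of miR-8110 reads CCCCCCcccc, with the first run of 6 C in capitals. miR-8110 lies on chromosome 8 of GRCm38.p6, at chr8:89024791-89024811, far from Mir211 on chromosome 7. Its log2 values were 1.81, 3.04, 2.59 and 2.98 in NcstnΔKC 1 to 4, against 2.70, 3.004, 0.43 and 0.54 in normal 1 to 4. Like miR-211-3p, it was low in normal 3 and normal 4 and lower in NcstnΔKC 1 than in the other NcstnΔKC arrays. Its difference was 0.93 ± 0.64 (SE; limma, adjusted p = 0.270). Among the 220 tested miRNAs without such a probe, r with miR-211-3p had a median of -0.19 and ran from -0.94 to 0.97, with 3 above 0.9, namely miR-721, miR-652-5p and miR-3960. In deviations from group means, 14 of these 220 were above 0.9, led by miR-721 (0.991), miR-6937-5p (0.977) and miR-7040-5p (0.973). Probes with shorter runs of C were not set apart among the 220, so this comparison cannot show whether a run of C matters. Whether the short C-rich probes read the same RNA was not tested.

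**Figure D4:**
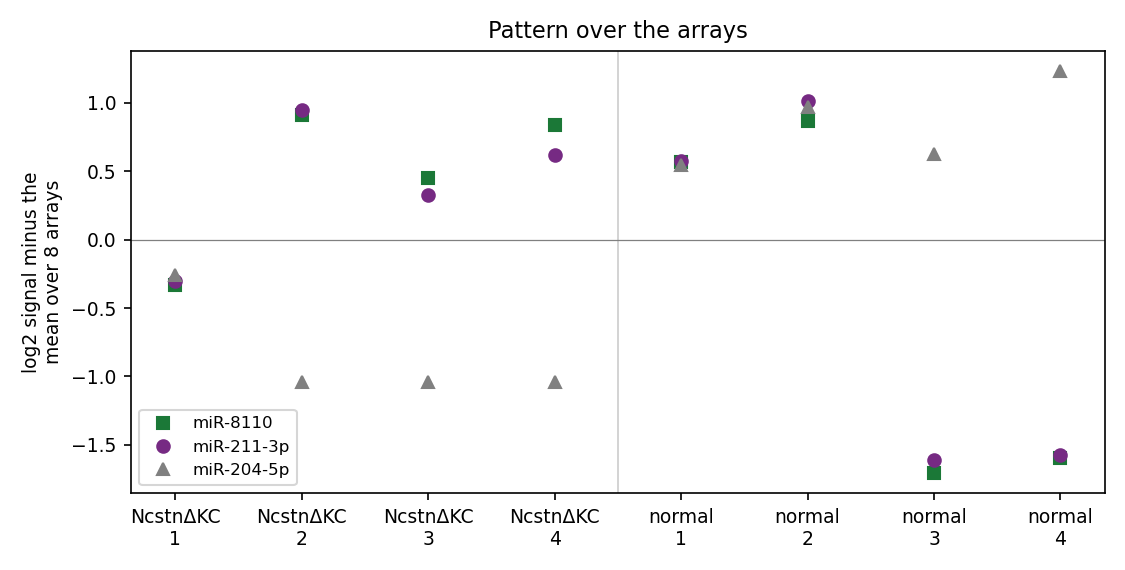
Log2 signal minus each miRNA's own mean over the 8 arrays (y axis) for miR-8110, miR-211-3p and miR-204-5p, by array (x axis), NcstnΔKC left of the grey line and normal right of it. miR-8110 and miR-211-3p lie close together on every array and fall together in normal 3 and normal 4, where miR-204-5p does not.

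**Figure D5:**
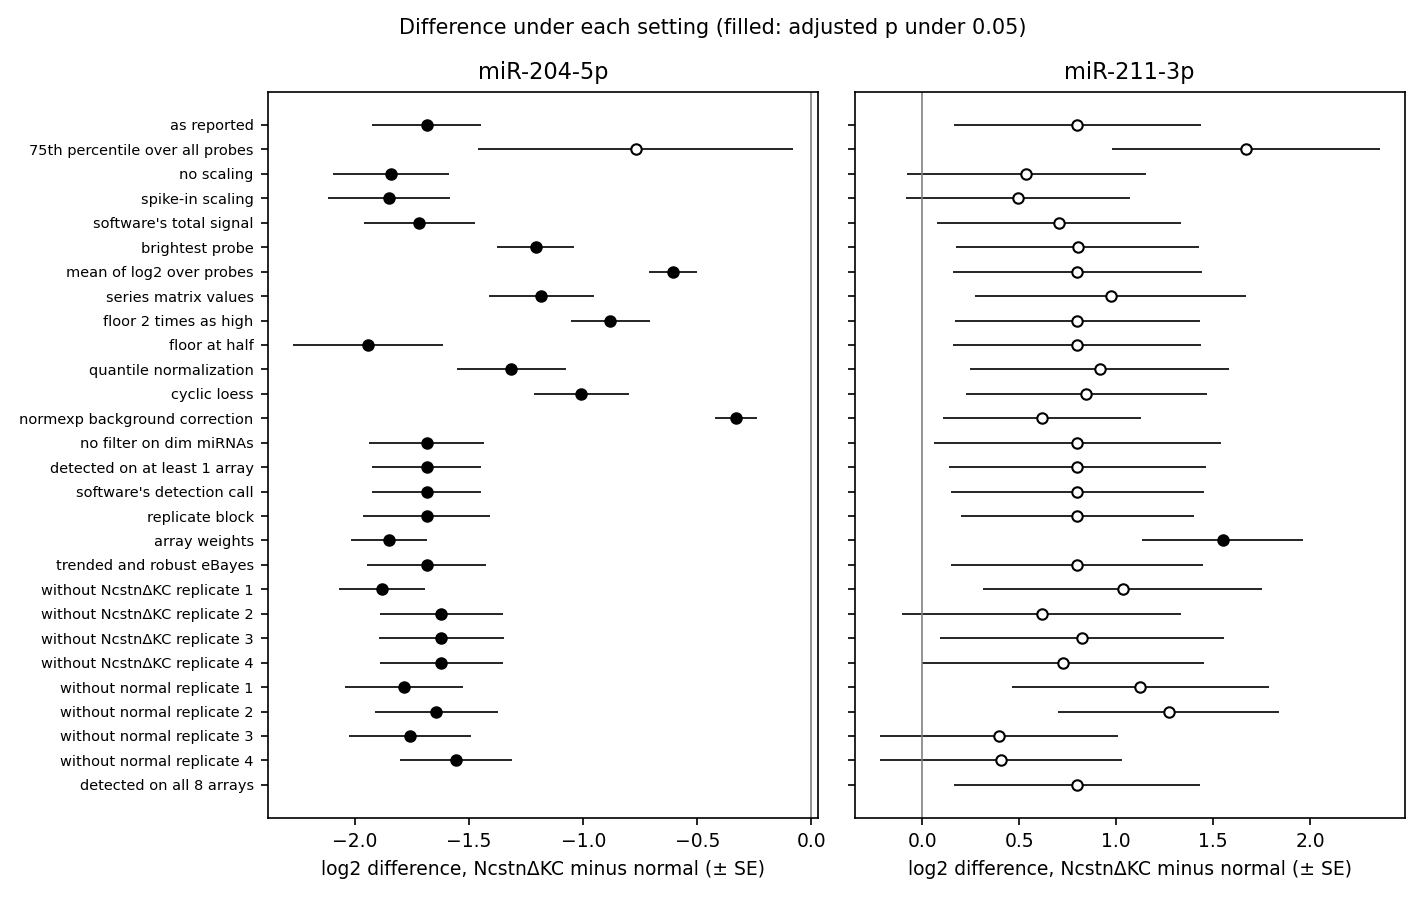
Log2 difference, NcstnΔKC minus normal (x axis, ± SE), of miR-204-5p and miR-211-3p under each processing setting (y axis), filled where the adjusted p was under 0.05. miR-204-5p stays below 0 in every setting shown and misses the threshold with the 75th percentile over all probes, while miR-211-3p stays above 0 and passes only with array weights; miR-204-5p has no value where detection on all 8 arrays is required.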

How the data were processed

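Cy3-labelled total RNA of 8 mouse skin samples was hybridised to 1-colour Agilent arrays. Per the file headers, Agilent Feature Extraction 10.7.1.1 gave each spot a processed intensity, with a fitted background subtracted and no normalization between arrays. The deposited value table holds log2 values, their normalization not given in the sources used here. The detection and outlier flags are also as deposited.

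Control and outlier spots were left out, and no spot was saturated. Spots were averaged per probe, scaled per array to the 75th percentile of 301 probes detected on all 8 arrays (at least 50% of spots well above background), and summed per miRNA. Values under 0.0318 were raised to it before log2. A miRNA entered the fit where 1 or both groups had it detected on 4 of 4 arrays, which left 222, and these were fitted with limma 3.58.1 in R 4.3.3 (lmFit, eBayes), with Benjamini-Hochberg adjustment. Differences are NcstnΔKC minus normal. For single values, exact two-sided permutation tests used all 70 splits. The limma step was tested on simulated data. The number of arrays limits the precision. Other scalings, background correction, floors, filters, summaries, a replicate block, array weights and leaving out each array were tried as alternatives.

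The members, lists and naming rule were chosen with earlier results of these data known. Named were the members, the other arm of miR-204, miRNAs sharing a seed, the 6 listed pigment miRNAs with the smallest p, and the 5 miRNAs most like miR-204-5p by each of the measures. miR-137-3p, miR-148a-3p and the miRNAs set beside miR-211-3p were named after their values were seen.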

Additional observations from a re-analysis of the deposited data

Results flagged for a closer look

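Of 30 groups of 4 arrays checked for a single array far from the others, 1 was marked, where chance marks about 1 in 20. It was miR-204-5p in NcstnΔKC skin, in which NcstnΔKC 1 had a log2 signal of -4.19 while the other 3 arrays sat at the floor of -4.97. Its gap to the nearest other array was thus the whole range of the group (a ratio of 1, above the critical value of 0.829). With 3 of 4 values at the floor, any array above the floor gives this ratio. Without NcstnΔKC 1, the difference of miR-204-5p was -1.88 (limma, adjusted p = 0.000677). Without the floor the ratio was 0.645, below the critical value. NcstnΔKC 1 remained the highest of its group, at 0.0547 in scaled signal against 0.0180 to 0.0310 in the others, and stayed below the lowest normal array, at 0.0954.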

How the results depend on the processing

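miR-204-5p kept its direction in all 27 alternatives and its call in 25. The alternatives reuse the same 8 arrays, and miR-204-5p entered most of them through normal skin alone. The kept calls thus add little to its detection counts. They include the fit with array weights, whose estimation stopped before it converged. The call was lost with the percentile over all probes (-0.77, limma adjusted p = 0.577) and with no filter and normal 2 left out, added after the data were seen (-1.64, 0.0995). Its range was -1.94 to -0.33, the latter with normexp and its offset of 50, and -1.88 to -1.56 with 1 array left out. miR-211-3p was 0.39 to 1.27 with 1 array left out and 0.49 to 1.67 otherwise, and passed with array weights (1.55, 0.00983). The ratio of miR-204-5p over miR-211-5p turned to 0.59 with the software's totals (exact permutation, adjusted p = 0.886), and was -1.47 to -0.90 with 1 array left out. The other ratios stayed negative, at -2.92 to -0.94 for miR-204-5p over miR-211-3p and -3.01 to -0.50 for miR-211-5p over miR-211-3p. The difference in detected miRNAs was -41.4 to -27.4 with 1 array left out. miR-211-5p was tested in no fit that leaves out 1 array alone.

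Higher calls (33) became 12 with the percentile over all probes, 18 with spike-in scaling, 19 with software totals, 8 with no filter and 52 with array weights, and 23 to 33 with 1 array left out. Lower calls (62) became 0 with the percentile over all probes, 101 with no scaling, 39 with software totals, 36 with the deposited table, 32 with quantile normalization, 30 with cyclic loess, 28 with normexp, 11 with no filter, 34 with detection on all 8 arrays and 97 with array weights, and 35 to 65 with 1 array left out (35 without NcstnΔKC 3). The cause was not tested. The median of all tested miRNAs was 0.64 with the percentile over all probes, -0.49 with no scaling and -0.54 with spike-ins, against -0.23.

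In both groups the replicate number was also the slide column. The deviations of same-numbered samples had r of -0.44, 0.20, -0.26 and -0.23, in order of number. So few values cannot exclude that the numbers pair samples. With the replicate number as a block, miR-204-5p gave an adjusted p of 0.0120, miR-211-3p 0.338 (limma), and the calls were 28 higher and 43 lower. The ratios gave a paired exact p of 0.25 after adjustment. So few pairs allow no exact p under 0.05, so this setting could not have passed a ratio. Detection limits the 5p arms: miR-204-5p lies near background in NcstnΔKC skin and miR-211-5p in both groups.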

Other observations

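The scanner software also deposits a total signal per miRNA, and for miR-211-5p it departed from the spots. On normal 2 that total was 448.7, which is 23.4 times the sum of the software's own probe totals (19.2). On normal 4 it was 80.4 and the software called the miRNA detected, although none of its probes was detected by their spots. On NcstnΔKC arrays the totals were 1.92 to 2.08, and on normal 1 and normal 3 they were 1.98 and 2.28. Of the 357 miRNAs the software called detected on any array, 139 had a total over 3 times their probe sum on at least 1 array. The cause was not tested. The deposited log2 values of miR-211-5p were 3.60 to 3.71 in NcstnΔKC skin and 3.60 to 4.34 in normal skin, with normal 2 again the highest.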
